A study of Mus musculus with 9 samples.

Results

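The transcription factors that set up and hold the macrophage and Kupffer cell lineage were examined in macrophages of the fetal liver. The 9 genes are Spi1, Irf8, Maf, Zeb2, Nr1h3, Rxra, Spic, Rbpj and Klf4. They were chosen by name, with earlier results of these data known, and each has a row among the 13708 genes of the table. RNA was sequenced from CD45+ F4/80hi CD11blow macrophages sorted from E15.5 mouse livers, with 5 samples of genotype Mrc1Cre Xpr1fl/fl and 4 Xpr1fl/fl control samples. All samples carry floxed Xpr1, which encodes a phosphate exporter, and the mice were kept on a C57BL/6JRj background. In the Mrc1Cre Xpr1fl/fl samples an improved Cre recombinase followed by eYFP was expressed from the Mrc1 locus, which encodes the mannose receptor CD206. The control samples lack this Cre allele. The study's methods describe Cre activity also in CD206+ endothelial cells of the liver, and a sort that held both Tim4 high and Tim4 low cells. The labels do not say whether the samples of a group came from separate embryos or litters, so the p-values below measure the spread between these samples.

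PU.1, the product of Spi1, and IRF8 are regarded as factors that open and maintain the myeloid enhancers of macrophages. In the liver, Kupffer cells acquire a second layer of regulators: LXRα, encoded by Nr1h3, which binds DNA with a retinoid X receptor such as RXRα, RBPJ, the nuclear effector of Notch signals, and SPIC, an ETS factor close to PU.1 that is known for its part in iron-recycling macrophages. MAF belongs to the factors that hold macrophages in a mature, non-dividing state, ZEB2 is a zinc finger factor needed to keep tissue macrophages in their identity, and KLF4 is a Krüppel-like factor of monocytes and resident macrophages.

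The values are normalized counts, that is, counts per gene divided by the authors' DESeq2 factors, and differences are given as log2 fold changes of Mrc1Cre Xpr1fl/fl against Xpr1fl/fl from limma on log2(normalized count + 1). Totals ran from 26942921 to 28309443 normalized counts per sample, and the depth of reads behind them is unknown. Xpr1 stood at 1162 ± 84.9 (SD, n = 5) in the Mrc1Cre Xpr1fl/fl samples and at 1982 ± 205 (SD, n = 4) in the controls, a fold change of -0.77 on the log2 scale (adjusted p = 4.13e-05). The counts are per gene and not for the floxed exon. Mrc1, into which the Cre was inserted, stood at 7574 ± 1266 against 24693 ± 2674 normalized counts. The column names of the table carry dates whose meaning is not given: Mrc1Cre Xpr1fl/fl sample 5 and control samples 1 to 3 share the earliest, control sample 4 has its own, and Mrc1Cre Xpr1fl/fl samples 1 to 4 share the latest. Date and genotype are therefore largely entangled, and a limma fit that also holds a term for date, called the date-adjusted fit here, rests on sample 5 against control samples 1 to 3.

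Of the 9 factor genes, 6 were higher in the Mrc1Cre Xpr1fl/fl samples (Zeb2, Nr1h3, Rbpj, Spic, Spi1 and Maf), 1 was lower (Klf4), and Irf8 and Rxra did not pass the threshold of an adjusted p of 0.05. Among all 13594 genes tested, 43.1% passed the threshold, 21.5% higher and 21.6% lower. The median log2 fold change was 0.22 over the 9 factor genes and 0.00497 over all genes tested. In 4 of the 9 (Spi1, Zeb2, Nr1h3 and Rbpj) every Mrc1Cre Xpr1fl/fl sample lay above every control sample, against 16.6% of all genes tested (17.5% lay apart as lower and 34.1% in either direction). Together the 9 genes took 0.284% to 0.286% of all normalized counts in the Mrc1Cre Xpr1fl/fl samples and 0.243% to 0.255% in the controls. The number that passed depended on the scaling of the samples: with scaling to the 75th percentile, with quantile normalization and with scaling to macrophage marker genes, 3 were higher (Zeb2, Nr1h3 and Rbpj in each) and 1 was lower. In the date-adjusted fit 2 were higher (Nr1h3 and Spic) and 0 lower, where 8.78% of all genes passed, 4.24% higher and 4.54% lower. In bulk samples, fewer cells that express a gene and less RNA of it per cell cannot be told apart.

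Markers of other cells of the fetal liver differed between genotypes in these samples, in which genotype and date are largely entangled. The summed level of 23 erythroid markers was 110715 to 329582 normalized counts in the Mrc1Cre Xpr1fl/fl samples, with 329582 in sample 5, and 437447 to 686351 in the controls, and 23 of 23 were lower. All 11 hepatocyte markers were lower, with sums of 35542 to 45977 against 59918 to 103774, and so were 10 of 13 endothelial markers, 6 of 13 granulocyte markers and 4 of 8 progenitor and megakaryocyte markers. Among 11 monocyte markers 2 were higher and 4 lower, and among 8 lymphoid and dendritic markers 1 was higher and 5 lower. Of all these markers with a row, only Gp1bb, a megakaryocyte gene, was at 0 in any sample. The 6 Kupffer cell markers were all lower (median log2 fold change -1.31), among them Timd4, which encodes Tim4 (-0.85), and the complement receptor gene Vsig4, which fell from 486 to 13.3 normalized counts. The 12 interferon-stimulated genes were all higher (median 1.34). The 10 general macrophage markers, in contrast, had a median of 0.03, with 1 higher, the gene of CD45 (Ptprc, 0.85), and 2 lower (Aif1, -0.32, and Cyba, -0.25). The part of these cell populations in the differences of the factor genes was not tested.

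**Figure D1:**
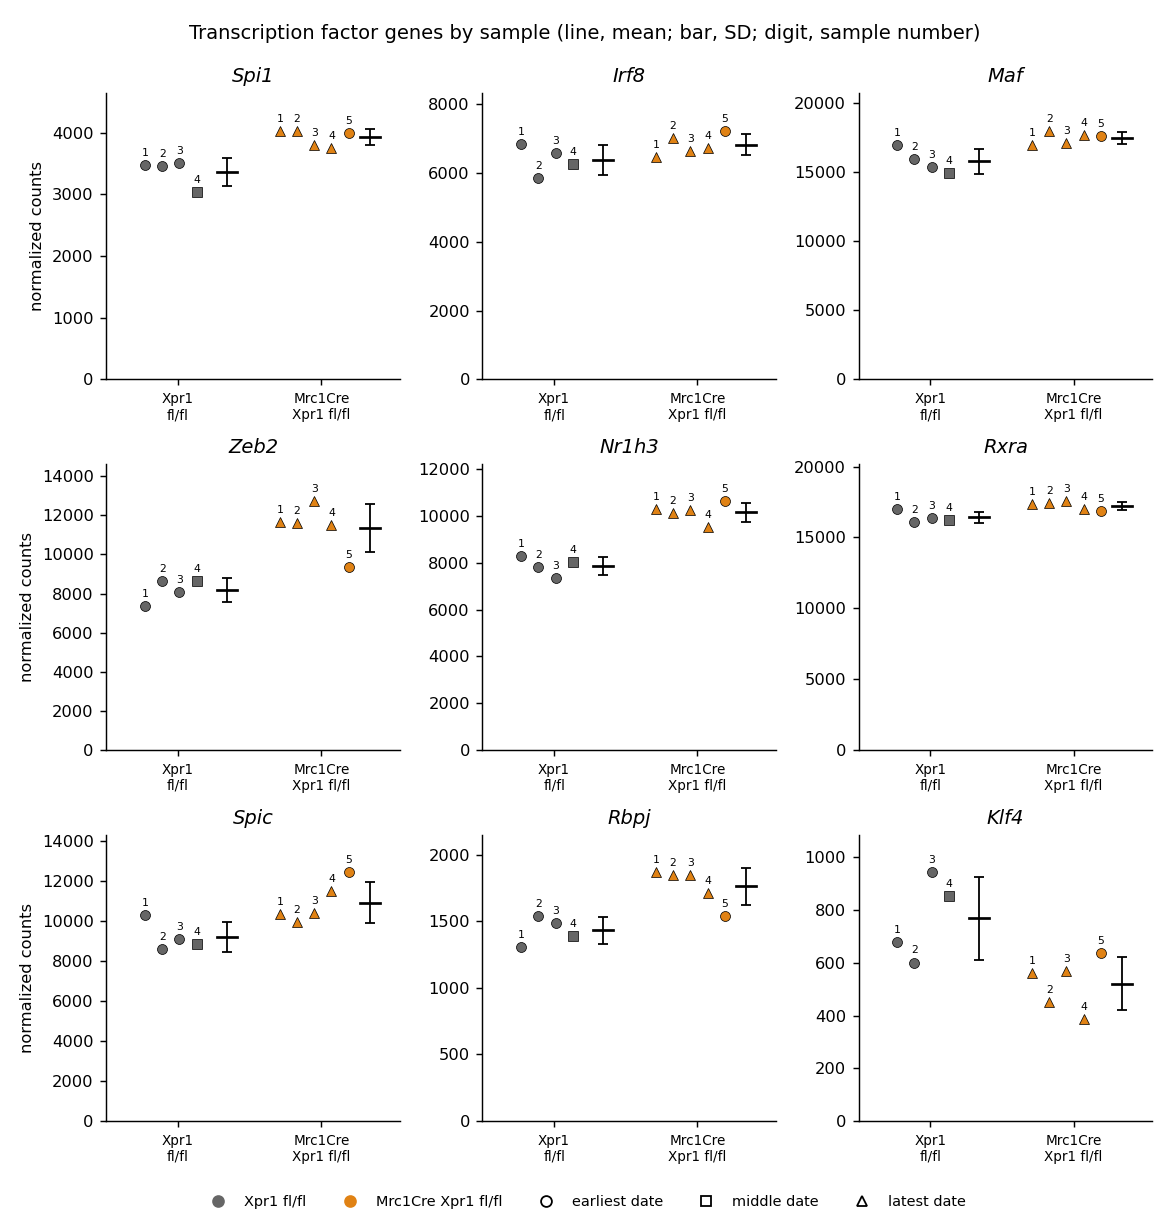
Normalized counts (vertical axis, from 0) of the 9 factor genes in each sample, by genotype; each point is a sample with its number, its shape gives the date in the column name, and the horizontal line and bar give the mean and SD. The 5 Mrc1Cre Xpr1fl/fl samples lie above all 4 controls for Spi1, Zeb2, Nr1h3 and Rbpj, and for Klf4 the Mrc1Cre Xpr1fl/fl samples reach from 386 to 636 against 601 to 944 in the controls.

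Spi1 and Spic encode ETS factors that read the same purine-rich element, the PU box, and Spi1 carries that element in its own promoter. The 2 promoters are shown from 250 bases before to 30 bases after the annotated start of the canonical transcript, with matches to the PU box (GAGGAAGT) or to its shorter core AGGAAGT in capitals, beside that of Nr1h3, the factor gene whose difference passed in the most fits. They were read from GRCm39 with release 39 of the GENCODE mouse annotation.
Spi1, chr2:90926191-90926470, + strand: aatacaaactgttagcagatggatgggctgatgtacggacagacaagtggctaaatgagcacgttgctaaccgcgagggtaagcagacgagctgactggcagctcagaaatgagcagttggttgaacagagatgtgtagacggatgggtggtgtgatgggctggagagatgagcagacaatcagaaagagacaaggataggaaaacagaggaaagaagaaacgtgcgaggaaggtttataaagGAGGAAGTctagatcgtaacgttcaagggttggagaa
Spic, chr10:88518856-88519135, - strand: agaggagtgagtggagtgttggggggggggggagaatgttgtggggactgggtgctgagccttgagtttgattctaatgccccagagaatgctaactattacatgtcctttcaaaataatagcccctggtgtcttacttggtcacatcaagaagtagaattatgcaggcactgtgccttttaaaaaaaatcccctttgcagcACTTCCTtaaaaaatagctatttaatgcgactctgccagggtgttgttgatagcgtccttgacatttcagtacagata
Nr1h3, chr2:91025505-91025784, - strand: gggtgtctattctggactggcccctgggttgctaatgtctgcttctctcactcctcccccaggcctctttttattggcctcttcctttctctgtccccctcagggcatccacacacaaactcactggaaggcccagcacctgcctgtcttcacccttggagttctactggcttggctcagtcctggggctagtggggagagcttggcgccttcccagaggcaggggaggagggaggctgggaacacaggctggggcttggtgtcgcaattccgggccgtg
The Spi1 match began 7 bases before the start and read GAGGAAGT on the gene's own strand, which 2.87% of 13045 promoters of this length held on either strand. The Spic match began 48 bases before the start on the opposite strand, so that it reads ACTTCCT, and it covered the core but not the full element. The core was present in 8.59% of promoters, and each full PU box contains a core. No match in Nr1h3 was found to the PU box, its core, the interferon-stimulated response element (GAAA, any 2 bases, GAAA), the ETS and IRF composite (GGAA, any 2 bases, GAAA), the RBPJ site GTGGGAA, the MAF site TGCTGAC, the ZEB E-box CAGGTA or the KLF site GGGTGTGG, on either strand. None of the other 6 factor genes had a match to any of these in this window. Of the 13045 promoters, 3.6% held the interferon-stimulated response element, 2.6% the ETS and IRF composite, 5.89% the RBPJ site, 3.37% the MAF site, 8.27% the ZEB E-box and 3.61% the KLF site. An LXR element, searched as AGGTCA repeated after any 4 bases, was in 0 of the 13045 promoters, so its absence from the factor genes carries no information. These are letters in a window, and binding was not measured.

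Spi1 (ENSMUSG00000002111, chr2:90912562-90946101, + strand of GRCm39), the gene of PU.1, was higher in the Mrc1Cre Xpr1fl/fl samples by 16.6%. It measured 4029, 4034, 3807, 3755 and 4002 normalized counts in Mrc1Cre Xpr1fl/fl samples 1 to 5 and 3473, 3457, 3506 and 3030.5 in control samples 1 to 4. The groups did not overlap, and control sample 4 was the lowest of all 9. The log2 fold change was 0.22 ± 0.05 (SE, adjusted p = 0.0071). It did not pass under 4 of the 21 alternative fits: it was 0.14 (adjusted p = 0.0656) with scaling to the 75th percentile, 0.11 (0.151) with quantile normalization, 0.17 (0.0843) with scaling to macrophage markers and 0.20 (0.135) in the date-adjusted fit.

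Irf8 (ENSMUSG00000041515, chr8:121463096-121485659, + strand), the partner of PU.1 at composite sites, ranged from 6473 to 7235 normalized counts in the Mrc1Cre Xpr1fl/fl samples and from 5847 to 6842 in the controls. The ranges overlapped, and the log2 fold change of 0.10 had a 95% interval of -0.03 to 0.22 (adjusted p = 0.192). The sign turned with quantile normalization (-0.0087). Relative to Spi1, the log2 ratio of Irf8 was -0.52 ± 0.07 (SD, n = 5) against -0.40 ± 0.12 (SD, n = 4), a difference of -0.13 that did not pass an exact permutation test (p = 0.0952, adjusted p = 0.127 over the 8 ratios compared). Without control sample 2 the difference was -0.18 (exact permutation, adjusted p = 0.0286).

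Spic (ENSMUSG00000004359, chr10:88510629-88520960, - strand) was higher by 18.6% on average. Its values were 10329, 9926, 10378.5, 11499 and 12441 normalized counts in the Mrc1Cre Xpr1fl/fl samples and 10288, 8618, 9082 and 8831 in the controls. Control sample 1 lay within the range of the Mrc1Cre Xpr1fl/fl samples, and sample 5 was the highest of all. Its log2 fold change was 0.24 ± 0.08 (SE, adjusted p = 0.0226). Unlike that of most of the other factor genes, it was larger in the date-adjusted fit (0.42, adjusted p = 0.0464), and it was 0.17 (adjusted p = 0.125) with scaling to the 75th percentile. Without Mrc1Cre Xpr1fl/fl sample 4 or control sample 2, 3 or 4 the adjusted p was 0.0518 to 0.0624. The ratio of Spic to Spi1, both on levels per length, was 1.68 ± 0.15 against 1.66 ± 0.12 on the log2 scale, a difference of 0.02 (exact permutation p = 0.825), and its samples overlapped in full. Of the 2 genes listed as regulated by SPIC in red pulp and liver macrophages, the adhesion molecule gene Vcam1 was lower (20016 ± 5299.8 (SD, n = 5) against 52996 ± 8747 (SD, n = 4) normalized counts, log2 fold change -1.43, adjusted p = 0.000174) and the iron exporter gene Slc40a1 stood at 102443 ± 6300.1 against 109000.0 ± 5938 (log2 fold change -0.09, adjusted p = 0.325). The log2 fold change of Slc40a1 was 0.31 with quantile normalization (adjusted p = 0.00898). In the date-adjusted fit, which rests on sample 5 against control samples 1 to 3, it was -0.09, and that of Vcam1 was -1.16.

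Maf (ENSMUSG00000055435, chr8:116409632-116434579, - strand) had the smallest of the differences that passed. It measured 16985, 18012, 17116, 17655 and 17589 normalized counts in the Mrc1Cre Xpr1fl/fl samples and 16989, 15934, 15354 and 14911 in the controls. Control sample 1 and Mrc1Cre Xpr1fl/fl sample 1 were nearly level, and the other 3 controls lay below all Mrc1Cre Xpr1fl/fl samples. The log2 fold change was 0.15 ± 0.05 (SE, adjusted p = 0.0341), and it passed in 9 of the 21 alternative fits, with 0.07 (adjusted p = 0.343) for scaling to the 75th percentile. It no longer passed without Mrc1Cre Xpr1fl/fl sample 2, 3 or 4 or without control sample 2, 3 or 4 (adjusted p of 0.0521 to 0.0954).

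Nr1h3 (ENSMUSG00000002108, chr2:91014394-91033417, - strand), the gene of the oxysterol receptor LXRα, had the difference that held in the most fits. Its values were 10288.5, 10127, 10255, 9512 and 10622 normalized counts in the Mrc1Cre Xpr1fl/fl samples and 8283, 7812, 7360.4 and 8031 in the controls. The gap between the groups was larger than the range within either, and sample 5 was the highest. Its log2 fold change was 0.37 ± 0.05 (SE, adjusted p = 0.000219), a rise of 29.1%. It passed in 21 of 21 alternative fits, with 0.29 after scaling to the 75th percentile (adjusted p = 0.0015) and 0.44 in the date-adjusted fit (adjusted p = 0.0154). Exons of Nr1h3 overlap Acp2, a lysosomal phosphatase gene on the opposite strand, which stood at 10951 ± 316 against 11458 ± 836 normalized counts (log2 fold change -0.06, adjusted p = 0.382). The library kit marks strand, but whether the quantification used it is not stated in the sources used here.

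Rxra (ENSMUSG00000015846, chr2:27566452-27653330, + strand), whose product dimerizes with LXRα, ranged from 16899 to 17545 normalized counts in the Mrc1Cre Xpr1fl/fl samples and from 16116 to 16991 in the controls. It was the most even of the 9 genes, with coefficients of variation of 1.6% and 2.36%, and the interval of its log2 fold change of 0.07 was -0.02 to 0.16 (95%, adjusted p = 0.198). The sign turned with scaling to the 75th percentile (-0.0085). The ratio of Nr1h3 to Rxra rose from 0.31 ± 0.06 to 0.60 ± 0.06 on the log2 scale, without overlap (difference 0.30, exact permutation p = 0.00794, the smallest that splits of 5 and 4 samples allow, adjusted p = 0.0159). Likewise the ratio of Nr1h3 to Nr1h2, the gene of the second LXR, rose from 1.97 ± 0.16 to 2.37 ± 0.11 (difference 0.40, exact permutation p = 0.00794, adjusted p = 0.0159), although control sample 1 at 2.21 came close to sample 5 at 2.22. Nr1h2 itself stood at 1953 ± 179.5 against 1999 ± 163 normalized counts (log2 fold change -0.03, adjusted p = 0.744). The ratio of Rxra to Rxrb differed by 0.14 (exact permutation p = 0.0476, adjusted p = 0.0762), and its adjusted p was 0.0457 without any 1 of the Mrc1Cre Xpr1fl/fl samples and 0.0476 without control sample 2.

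**Figure D2:**
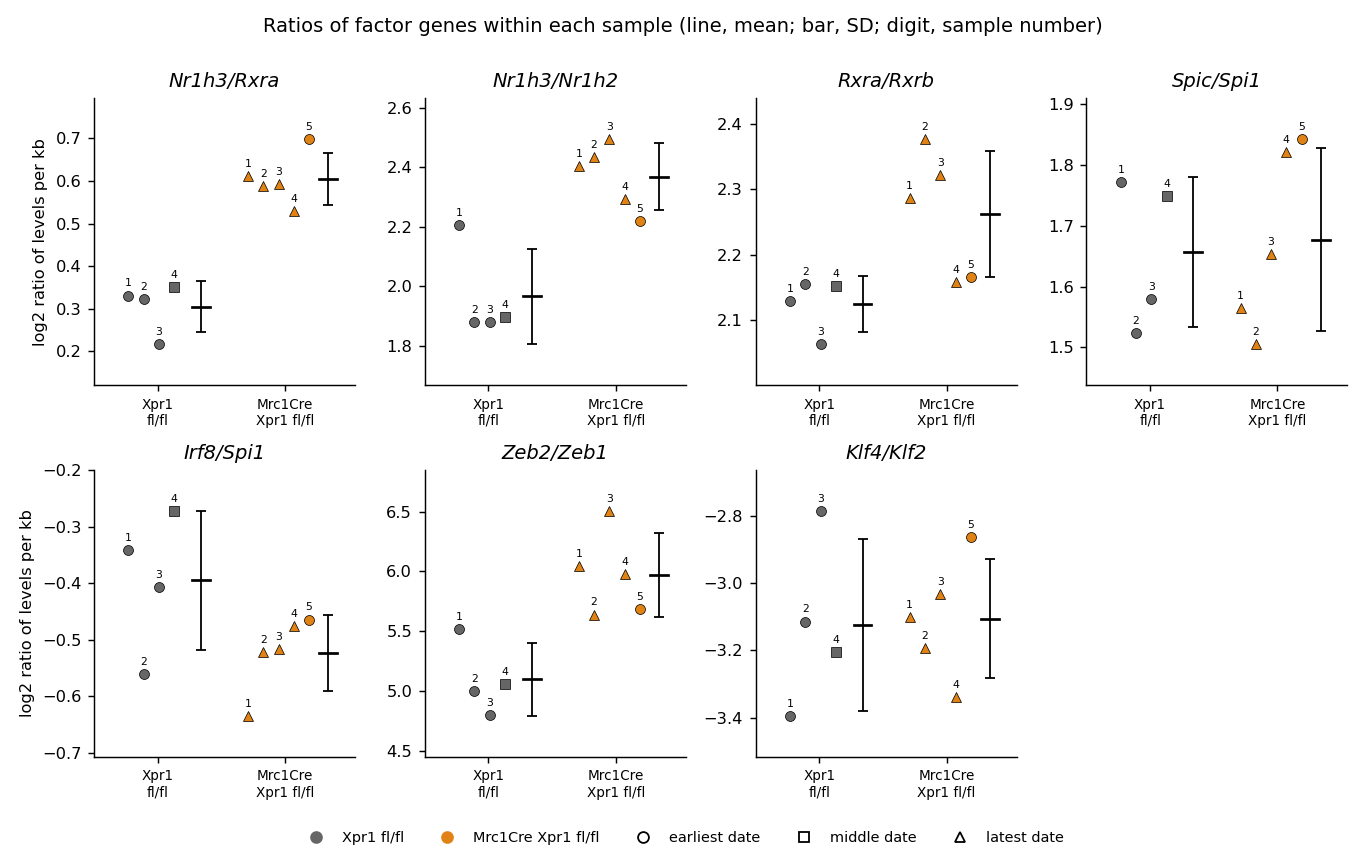
Log2 ratio of the levels per kilobase (vertical axes, not starting at 0) of 7 pairs of genes within each sample, by genotype; points are samples with their numbers, shapes give the date in the column name, and the line and bar give the mean and SD. The ratios Nr1h3/Rxra, Nr1h3/Nr1h2 and Zeb2/Zeb1 separate the genotypes and pass the exact test, while the group means of Spic/Spi1 and Klf4/Klf2 differ by 0.02 each.

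LXR controls genes of cholesterol efflux and lipid synthesis, and 11 of these were listed. While Nr1h3 was higher, 1 of the 11 was higher and 5 were lower, with a median log2 fold change of -0.08. The cholesterol transporter gene Abcg1 was higher (log2 fold change 0.29, adjusted p = 0.0145), and its partner Abca1 stood at 23017 against 21324 normalized counts (0.11, adjusted p = 0.587). The genes that fell were Pltp, which encodes the phospholipid transfer protein (-1.51, adjusted p = 0.000115), the desaturase gene Scd1 (-1.18), Mylip, whose product degrades the LDL receptor (-0.71), Apoe (-0.66) and the phosphodiesterase-like gene Smpdl3a (-0.58). Date adjustment left 2 of the 11 lower and 0 higher. Some of these genes, such as Apoe, are abundant in hepatocytes too, whose markers were lower in the same samples, and the part of that in the result was not tested.

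Zeb2 (ENSMUSG00000026872, chr2:44873644-45007464, - strand) had the largest rise of the 9 genes, 38.8%. It measured 11635, 11600.2, 12714, 11504 and 9344 normalized counts in the Mrc1Cre Xpr1fl/fl samples and 7376, 8663, 8064 and 8642 in the controls. All Mrc1Cre Xpr1fl/fl samples lay above all controls, but sample 5 stood apart from samples 1 to 4 and nearer to the controls. The log2 fold change was 0.47 ± 0.08 (SE, adjusted p = 0.0012), and it was 0.22 (adjusted p = 0.198) in the date-adjusted fit, the one alternative of 21 under which it did not pass. Samples 1 to 4 were higher than sample 5 by 0.34 on the log2 scale on average. Zeb1, the other member of this family, was at 175 against 234 normalized counts (log2 fold change -0.40, adjusted p = 0.106). The ratio of Zeb2 to Zeb1 was 5.97 ± 0.35 against 5.10 ± 0.30 on the log2 scale (difference 0.87, exact permutation p = 0.00794, adjusted p = 0.0159), and sample 5 at 5.68 was above the 4.81 to 5.52 of control samples 1 to 3. Without control sample 3 the difference was 0.77 and its adjusted p 0.0571.

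Rbpj (ENSMUSG00000039191, chr5:53623494-53814704, + strand) followed the same pattern. It measured 1867.5, 1845, 1848, 1714 and 1540.3 normalized counts in the Mrc1Cre Xpr1fl/fl samples and 1306, 1536, 1486 and 1392 in the controls. The groups did not overlap, but sample 5 exceeded control sample 2 by a margin far smaller than the SD of either group. Its log2 fold change was 0.30 ± 0.07 (SE, adjusted p = 0.0064), and 0.10 (adjusted p = 0.611) in the date-adjusted fit. RBPJ represses or activates its targets depending on whether a cleaved Notch receptor is bound, and the genes of that pathway were mixed. Of 28 tested, 8 were higher and 6 lower, with a median of 0.05, and with scaling to the 75th percentile 6 were higher and 7 lower.

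Among the Notch genes that rose were the corepressor gene Spen (log2 fold change 0.77, adjusted p = 0.0011), the receptor genes Notch2 (0.50, adjusted p = 0.0036) and Notch1 (0.30, adjusted p = 0.0232), the sheddase gene Adam17 (0.57) and the coactivator genes Maml3 (0.64) and Maml1 (0.16). The second sheddase gene, Adam10, stood at 13529 against 12207 normalized counts (0.14, adjusted p = 0.158). Those that fell included the ligand gene Dll4 (-1.43, adjusted p = 0.026) and the target genes Hey1 (-1.27) and Nrarp (-1.14), with at most 113 normalized counts on average in the Mrc1Cre Xpr1fl/fl samples. Dll4 and Hey1 are also genes of the endothelium, 10 of whose 13 markers were lower, and the part of that in these values was not tested. The target gene Hes1 was at 784 against 710 normalized counts (0.15, adjusted p = 0.184). In the date-adjusted fit 1 Notch gene was higher and 2 were lower.

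Klf4 (ENSMUSG00000003032, chr4:55527139-55532528, - strand) was the one factor gene called lower, and its mean fell by 32.4%. It measured 561, 450.5, 569, 386 and 636 normalized counts in the Mrc1Cre Xpr1fl/fl samples and 679.8, 601, 944 and 853 in the controls. It varied most within the groups, with coefficients of variation of 19.2% and 20.4%, and control sample 2 lay below Mrc1Cre Xpr1fl/fl sample 5. The log2 fold change was -0.56 ± 0.16 (SE, adjusted p = 0.0165). It was -0.46 (adjusted p = 0.0549) without control sample 3 and -0.20 (adjusted p = 0.686) in the date-adjusted fit. The Krüppel-like family as a whole leaned the same way: 8 of the 14 other members tested fell and 2 rose (median -0.44). Of all genes tested, 21.6% were lower and 21.5% higher. The lean of the family held under each of the 3 other scalings. The largest fall was that of Klf1 (-1.88, adjusted p = 9.05e-05), the erythroid member, which also stands among the erythroid markers. Klf2, a member that quiets myeloid activation, fell from 4406 to 2919.5 normalized counts (-0.58, adjusted p = 0.0015, and -0.43 in the date-adjusted fit). The ratio of Klf4 to Klf2 differed by 0.02 on the log2 scale (exact permutation p = 0.865). Erythroid and endothelial markers were lower in the same samples, and the part of that in the falls of Klf4 and its family was not tested. Klf6 stood at 8323 against 8516 (-0.04, adjusted p = 0.758), and Klf12 (0.53) and Klf13 (0.35) were higher. After date adjustment 0 of the 14 were higher and 2 lower.

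**Figure D3:**
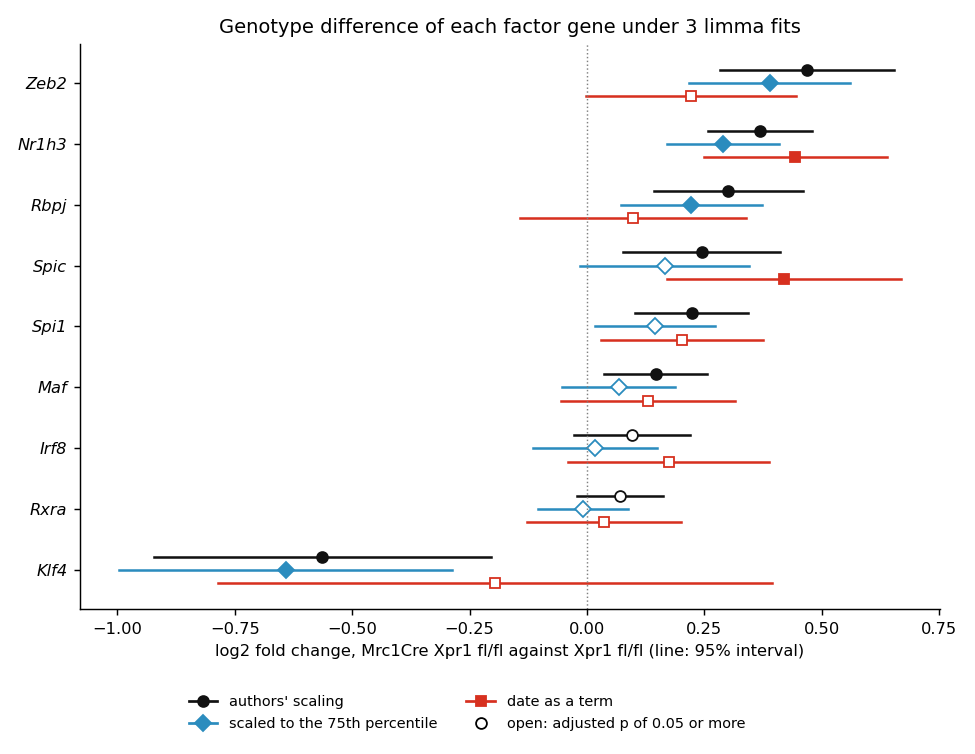
Log2 fold change (horizontal axis) of each factor gene with its 95% interval under 3 limma fits: the authors' scaling, scaling to the 75th percentile and the fit adjusted for date; filled symbols have an adjusted p under 0.05. Nr1h3 is filled in all 3 fits, Zeb2, Rbpj and Klf4 in both fits without the date, and Irf8 and Rxra in none.

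Mrc1Cre Xpr1fl/fl sample 5 and control samples 1 to 3 carry the same date and can be set side by side. Sample 5 was above all 3 of these controls for Spi1, Irf8, Maf, Zeb2, Nr1h3, Spic and Rbpj, and within their range for Rxra and Klf4. The share of all genes tested that place sample 5 above these controls was not computed. These positions describe 1 sample and carry no test. Among the 5 Mrc1Cre Xpr1fl/fl samples, sample 5 was the lowest for Zeb2, Rbpj and Rxra and the highest for Nr1h3, Spic, Irf8 and Klf4. Sample 5 also had the highest erythroid sum of its group, and the part of that in its values was not tested. Most of the factor genes varied little within a group: coefficients of variation ran from 1.6% to 19.2% in the Mrc1Cre Xpr1fl/fl samples and from 2.36% to 20.4% in the controls, with medians over all genes tested of 10.1% and 10.1%. Those medians include genes of low level, and no comparison with genes of like level was made.

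Compared per length of the canonical transcript, Spic was the most abundant of the 9 genes in both genotypes, and Rbpj and Klf4 the least. In the controls the means were 5221 normalized counts per kilobase for Spic, 3982 for Maf, 3711 for Nr1h3, 3002 for Rxra, 1655 for Spi1, 1357 for Zeb2, 1259 for Irf8, 263 for Rbpj and 254 for Klf4. The ranges of the control samples overlapped between Maf and Nr1h3, between Zeb2 and Irf8 and between Rbpj and Klf4, so that these neighbours cannot be ordered beyond their spread. In the Mrc1Cre Xpr1fl/fl samples Nr1h3 (4791) came before Maf (4404) with samples that overlapped, Spi1 (1930) and Zeb2 (1884) overlapped, and Klf4 (172) lay below Rbpj (324) without overlap. Over all genes with a length, Spic lay at percentile 97.9 and Klf4 at percentile 51.1 of the level per kilobase. The lengths are those of 1 transcript per gene, and the isoforms in use were not measured.

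**Figure D4:**
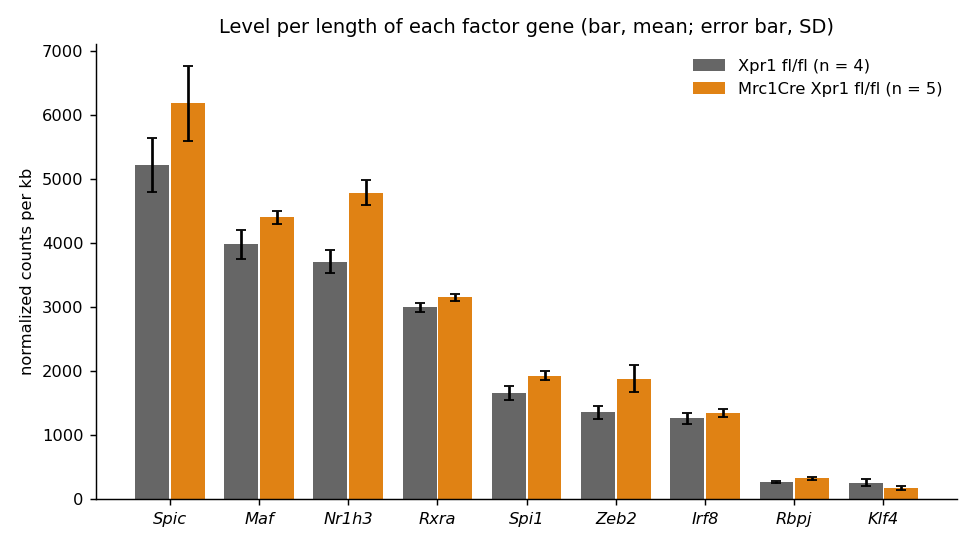
Normalized counts per kilobase of canonical transcript (vertical axis, from 0) of the 9 factor genes, as the mean (bar) and SD (error bar) of the 4 Xpr1fl/fl and the 5 Mrc1Cre Xpr1fl/fl samples. Spic is highest at 5221 and 6191, and Rbpj and Klf4 stay at or below 324 in both genotypes.

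The relatives of PU.1 and IRF8 gave no single direction. Of 16 other ETS genes 8 were higher and 3 lower, but with scaling to the 75th percentile 5 were higher and 6 lower. Ets2 rose most (3958 against 2436 normalized counts, log2 fold change 0.70, adjusted p = 0.000122), Elf4 was at 6095 against 4987 (0.29), and Spib, a lymphoid and plasmacytoid PU.1 relative, fell most, from 44.7 to 12.1 normalized counts (-1.72, adjusted p = 0.007). Of 8 other IRF genes 4 were higher and 2 lower, and with scaling to the 75th percentile 2 were higher and 3 lower. Irf7, the amplifier of type I interferon responses, rose from 3418 to 9478 normalized counts (1.49, adjusted p = 3.43e-05), and Irf5 (0.37), Irf1 (0.35) and Irf9 (0.22) rose less. Irf3 was lower (-0.17, adjusted p = 0.0288). The rise of Irf7 was 1.35 in the date-adjusted fit (adjusted p = 0.0154).

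Genes listed as targets of PU.1 and IRF8 in macrophages did not move with Spi1 as a group: 3 of 11 were higher and 2 lower, with a median of -0.02. The colony-stimulating factor receptor gene Csf1r stood at 84995 against 77102 normalized counts (log2 fold change 0.14, adjusted p = 0.155). The gene of the NADPH oxidase subunit Cybb (0.38), the endotoxin receptor gene Tlr4 (0.42) and the integrin gene Itgam (0.42, adjusted p = 0.0071) were higher. The lysozyme gene Lyz2 fell most (-1.11, adjusted p = 7.36e-05), and Cyba, the partner subunit of Cybb, was lower (-0.25). In the same samples 6 of 13 granulocyte markers were lower, and the part of that in the fall of Lyz2 was not tested. Of the 4 genes listed as MAF targets, 3 were lower: Cd5l, a scavenger protein gene of Kupffer cells (-0.90), and the complement genes C1qa (-0.86) and C1qc (-0.41), while C1qb was at 42229 against 45808 (-0.11, adjusted p = 0.174). The list's median was -0.64. Date-adjusted, 0 of the 11 PU.1 and IRF8 targets were higher and 1 was lower, and 1 of the 4 MAF genes was lower.

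Among the further relatives of the factor genes, 3 of 8 MAF and BACH genes were higher and 1 was lower, with Bach1, a heme-sensing repressor, rising most (0.60, adjusted p = 3.78e-05). Of 21 nuclear receptors and cofactors 10 were higher and 3 lower (median 0.11). The immediate-early receptor gene Nr4a1 rose most (0.77, adjusted p = 0.000286), the coactivator gene Ncoa3 was at 8189.9 against 6986 (0.23, adjusted p = 0.048), the corepressor gene Ncor1 rose by 0.47 on the log2 scale, and the clock receptor gene Nr1d1 fell most (-0.88). After date adjustment 1 of the 21 was higher. Of 27 other factors of myeloid cells 5 were higher and 9 lower (median -0.15), from the liver and myeloid repressor gene Zbtb20 (0.70, adjusted p = 0.0206) to Gfi1, a repressor of granulocyte precursors (-1.81, adjusted p = 0.0013). The inhibitor genes Id1 (-0.25, adjusted p = 0.0771) and Id3 (0.05, adjusted p = 0.619) did not pass, Id3 being a factor known from Kupffer cell differentiation. Egr1 was lower (-0.48, adjusted p = 0.0348). Over all these regulator and target lists together, 44 genes were higher and 43 lower, against 33 and 54 with scaling to the 75th percentile. Among all 13594 genes tested, 2926 (21.5%) were higher and 2939 (21.6%) lower, against 1999 and 3707 with that scaling.

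**Figure D5:**
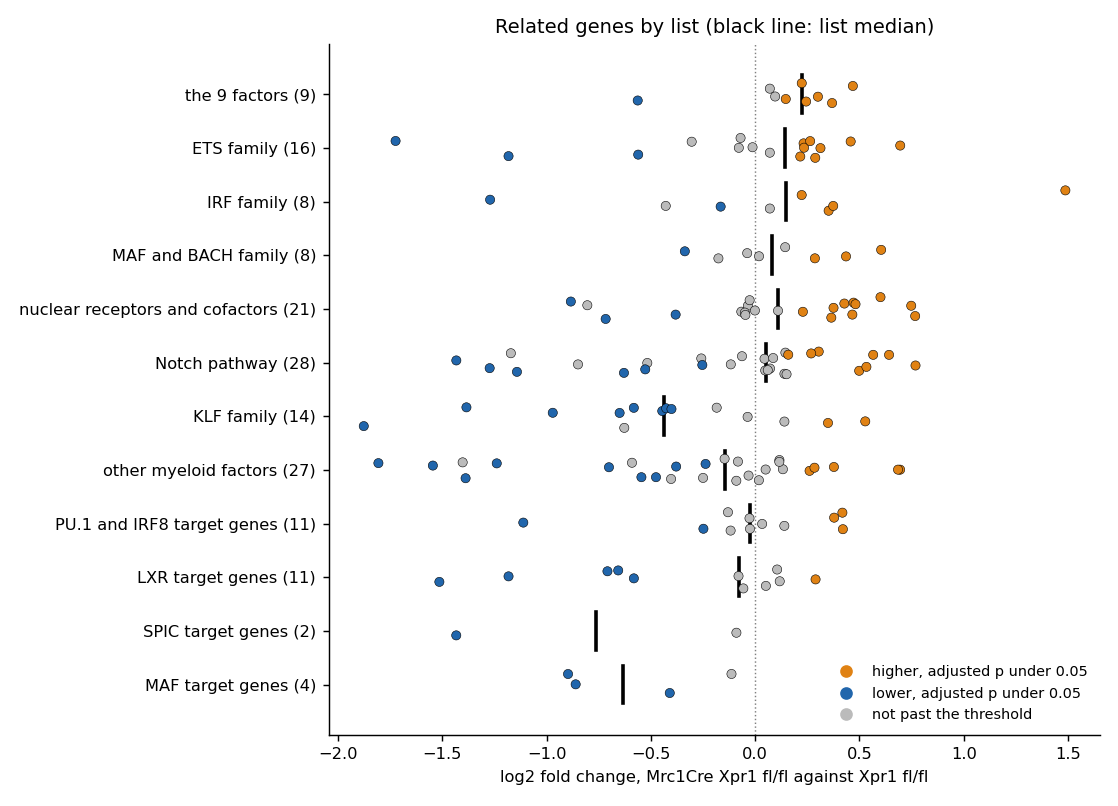
Log2 fold change (horizontal axis) of each gene tested in the lists of factor genes, relatives and target genes (rows, number tested in parentheses); orange and blue points passed an adjusted p of 0.05 as higher or lower, grey points did not, and the black line is the list's median. With the authors' scaling, the factor genes apart from Klf4 lie between 0.07 and 0.47, and the Krüppel-like family and the MAF target genes lie mostly below 0.

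The genes whose 9 sample values, centred on their mean, stayed closest to a factor gene were looked up among 10499 genes that averaged 100 normalized counts or more, by the root mean square distance on the log2 scale. For Spi1 these were Ccdc117 (0.033), Vps53 and Chpt1. For Irf8 they were Prex1 (0.040), Stx8 and Mtarc2, and for Maf Rnf114 (0.026), Snx4 and Kdm1a. For Zeb2 they were Sel1l (0.030), Dennd1b and Eea1. Nr1h3 was closest to Myl12a (0.039), Irf5 (0.040) and Wdr1, so that a further IRF gene with a log2 fold change of 0.37 followed it across samples. Rxra was closest to Zfr (0.023), Dync1i2 and Lfng, Spic to Leng1 (0.062), Ube2f and Anxa3, and Rbpj to Tpp2 (0.032), Diaph1 and Stag1. Klf4 was closest to another Krüppel-like gene, Klf15 (0.13), which fell by 0.65 on the log2 scale, and to Dgat2 and Stmp1. None of the 9 factor genes was among the 3 nearest genes of another. The distances describe these 9 samples, which differ in genotype and date, and carry no test. Differences between genotypes and between dates enter the distances.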

How the data were processed

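RNA was measured in 5 Mrc1Cre Xpr1fl/fl and 4 Xpr1fl/fl samples of sorted fetal liver macrophages. According to the study's methods, libraries were made from 45 ng of RNA with a stranded mRNA kit, and transcripts were quantified with salmon on GRCm39, imported by the authors with tximport and analysed with DESeq2. Versions are not given in the sources used here. The deposited table holds 1 signal value per gene and sample: normalized counts, which the authors obtained by dividing counts by DESeq2 factors, for 13708 genes. They did not return to whole reads, since 26.5% to 49.7% of the values under 10 lay within 0.05 of a multiple of the sample's spacing where chance gives 10%, so no count test was run.

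Genotypes were compared by the moderated test of limma 3.58.1, run in R 4.3.3 with a mean-variance trend, after adding 1 and taking log2. The 13594 genes that reached 10 normalized counts in 4 or more samples were tested, and Benjamini-Hochberg adjustment covered all of them (threshold 0.05). Ratios of 8 gene pairs were compared by two-sided exact permutation of the samples, with p-values adjusted over the 8; 1 of the pairs and some list genes are not reported here. Alternatives were other pseudocounts, filters and scalings, limma settings, the date or the replicate number as a term, and leaving out each sample. Symbols, coordinates and promoters came from GRCm39 with GENCODE release 39 for mouse, and a promoter spans 280 bases. Motifs were chosen after the files were seen.

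The members and lists were chosen with earlier results of these data known. Named were the 9 factor genes, Xpr1 and Mrc1, the genes of the ratios, the 3 genes most like each factor gene, and from each list the gene with the highest mean normalized count and those past the threshold that rose and fell most. Other list genes named were chosen after their values were seen. Same-numbered samples of the 2 genotypes were not treated as pairs. Intervals are limma's 95% intervals, and precision is limited by 4 and 5 samples.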

Additional observations from a re-analysis of the deposited data

Results flagged for a closer look

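One result stood far from the others of its group. Spi1 in Xpr1fl/fl control sample 4 measured 3030.5 normalized counts, against 3456.6 to 3505.6 in the other 3 control samples, a gap of 0.897 of the whole range of the group. It was found among 18 groups tested (9 factor genes in 2 genotypes), and chance marks about 1 in 20 such groups. This sample is also the one with a date of its own in the column names. Without it, the log2 fold change of Spi1 was 0.17 (adjusted p = 0.0184).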

How the results depend on the processing

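Nr1h3 kept its direction and passed in 21 of 21 alternatives, Zeb2 and Rbpj in 20, Klf4 in 19, Spi1 in 17, Spic in 14 and Maf in 9, and Irf8 and Rxra passed in 0. The count of factor genes called higher went from 6 to 3 with scaling to the 75th percentile, with quantile normalization and with scaling to macrophage markers, and to 2 with the date as a term. Spi1, Maf and Spic were those lost under the scalings. The count called lower went from 1 to 0 with the date and without control sample 3. Leaving out each sample in turn gave 4 to 6 higher, 0 to 1 lower and 4815 to 6081 genes called in all. With the date as a term, which leaves sample 5 against control samples 1 to 3, 1194 genes passed in place of 5865, and 9 regulator and target genes were higher and 14 lower in place of 44 and 43. The fewer samples behind that fit are part of its construction, and other causes were not tested. Of all genes called, 49.9% were higher, against 35.03% with scaling to the 75th percentile, 37.9% with macrophage markers and 53.8% with quantile normalization; these scalings moved the median of all genes by -0.08, -0.05 and 0.03. The sign turned for Irf8 with quantile normalization (-0.0087) and for Rxra with the 75th percentile (-0.0085). The ratio differences ran from -0.0233 to 0.0638 for Spic/Spi1 (negative in 4 of 9, at -0.0151, -0.0205, -0.0233 and -0.0048) and from -0.0712 to 0.131 for Klf4/Klf2 (negative in 3, at -0.0421, -0.0712 and -0.0077) when samples were left out, and 3 to 6 of the 8 ratios passed.

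The labels number the samples of both genotypes, but same-numbered samples did not deviate together (correlations of their deviations of -0.03, 0.15, -0.01 and -0.03), and of the controls only sample 2 correlated best with its own number. With the replicate number as a block, 5 factor genes were higher and 1 lower, Maf being lost (log2 fold change 0.14, adjusted p = 0.055), and 6226 genes passed. Number 5 occurs in the Mrc1Cre Xpr1fl/fl group only, so the block takes sample 5 out of the estimate. The log2 fold changes are those of the fit without sample 5 (0.54 for Zeb2 and 0.35 for Nr1h3 in both). Without sample 5, no date is shared by the genotypes.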
